A study of Verbena bonariensis with 6 samples.

Results

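HMG-box proteins bind DNA through a short folded domain, the high mobility group box, which sits in the minor groove and bends the double helix. In plants the family holds the small chromatin proteins of the HMGB type, larger proteins with several boxes or with an added ARID domain, and SSRP1, the HMG-box subunit of the histone chaperone FACT, which loosens and rebuilds nucleosomes while RNA polymerase passes. Small HMGB proteins are abundant architectural components of chromatin, and transcripts of some members are known to respond to cold in Arabidopsis.

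In leaves of *Verbena bonariensis*, 110 clusters of 9740 in the table carried HMG as their only family, and no cluster carried HMG together with another family. Clusters are the authors' numbered transcript models, so several of them can be forms of 1 gene. The members were chosen by this family entry alone and were named by the description of their best match in the NR protein database. In all, 96 clusters had a best match, to 36 different proteins, and 14 had none. By these descriptions 41 clusters fell under HMG1/2-like and single-box HMGB proteins, 14 under SSRP1, 2 under proteins of the 3xHMG-box type, 2 under ARID-HMG proteins and 51 under other names. The clusters were 219 to 3496 bases long, with a median of 1197 bases.

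The cold group consisted of 3-month-old seedlings of the strain Finesse that spent 24 h at 4°C followed by 4 h at -4°C, and the control group of seedlings of the same strain and age left untreated. Leaves were the tissue in both, with 3 libraries per group that the labels describe as biological replicates. Cold was compared with control to find regulators whose transcripts respond to low temperature, and the p-values measure the spread between these libraries. The treatment joins chilling and freezing in 1 sampling time, so their parts cannot be told apart. In leaf RNA, fewer cells of a type and less RNA per cell cannot be told apart either.

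The table carried 722556, 728918 and 791041 estimated counts in cold replicates 1, 2 and 3, and 991180, 1213366 and 1149144 in control replicates 1, 2 and 3. Among markers, 17 clusters of the cold-responsive DREB1 type summed to 817 ± 11.4 FPKM in cold and 115 ± 0.508 FPKM in control (SD, n = 3 each), FPKM being fragments scaled to cluster length and library size. The 27 clusters of the leaf-type GLK activators summed to 103 ± 0.551 and 120.0 ± 2.98 FPKM in cold and control leaves. Sigma factors of plastid RNA polymerase, on 17 clusters, stood at 263 ± 7.31 against 97.1 ± 0.126 FPKM, and 2 GATA clusters of the type of green tissue at 1.89 ± 0.324 against 23.1 ± 1.21 FPKM. The flower markers AGAMOUS and DEFICIENS had 0 to 0.300 FPKM in cold and 0.340 to 1.83 FPKM in control libraries, and no cluster was named for the root markers PLETHORA or ROOT HAIR DEFECTIVE 6 or for GLOBOSA. The part of tissue makeup in the results was not tested.

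HMG-box transcripts took a larger share of the measured regulators in cold leaves. They made up 1.48, 1.51 and 1.46% of the table's counts in the cold libraries and 0.495, 0.512 and 0.505% in the control libraries. In normalized CPM (counts over a library's reads on tested clusters multiplied by its TMM factor, times 1000000), the family summed to 15996 ± 358 in cold and 4897 ± 123 in control, a ratio of 3.27. The libraries of both groups did not overlap. Most of the difference lay in 1 group of names. HMG1/2-like and HMGB clusters held 65.3 to 65.6% of the family's reads in cold and 17.02 to 18.5% in control. SSRP1 clusters, grouped by NR name, held 8.74 to 9.14% in cold and 15 to 15.4% in control, although their level was higher in cold. Of their mean of 1423 normalized CPM in cold and 741 in control, 435 and 205 came from a best match to *Medicago truncatula*. By Swiss-Prot that best match was a small fungal HMG-box protein, not SSRP1. Clusters under other names held 25.3 to 25.4% in cold and 65.9 to 67.5% in control.

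Of the 110 clusters, 42 passed edgeR's filter on low counts and were tested. In the fit over all 5004 tested clusters, 24 HMG clusters were higher in cold, 2 were lower and 16 were not called at an adjusted p under 0.05. Across all tested clusters 21.9% were called higher and 23.6% lower. The median log2 fold change was 1.47 for the 42 HMG clusters and -0.14 for all tested clusters. These counts do not describe all members. Of the 42, 17 reached the count minimum in all 3 cold libraries but not in all 3 control libraries, 1 did so in control only, and 3 reached it in no whole group. The 68 clusters left out carried at most 3.54% of the family's counts in any cold library and 6.44% in any control library, and 5 of them had no count at all.

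Because forms of 1 gene can share reads, counts were also added up for each best match. Of the 36 named best matches 23 could be tested, together with 3 single clusters that had no NR match. In this fit 16 of the 26 were higher in cold, 2 were lower and 8 were not called. The shares over all 2372 sums tested were 34.9% higher and 37% lower. The median log2 fold change was 1.18 for the HMG sums and -0.07 for all sums. Of the 26, 15 reached the count minimum in all libraries and 7 only through the cold group. Summed by Swiss-Prot match in place of NR, an alternative added after the values were seen, 12 of 16 HMG sums were higher and 2 lower, against 36.1% and 37.8% of 1774 sums. Every NR sum called either way had cold libraries that did not overlap with the control libraries. The share of called sums without overlap over all families is not given here, so this does not set HMG sums apart. The TMM factors of the summed fit place a fold change 0.13 higher on the log2 scale than those of the cluster fit, whose factors give the CPM values below.

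**Figure D1:**
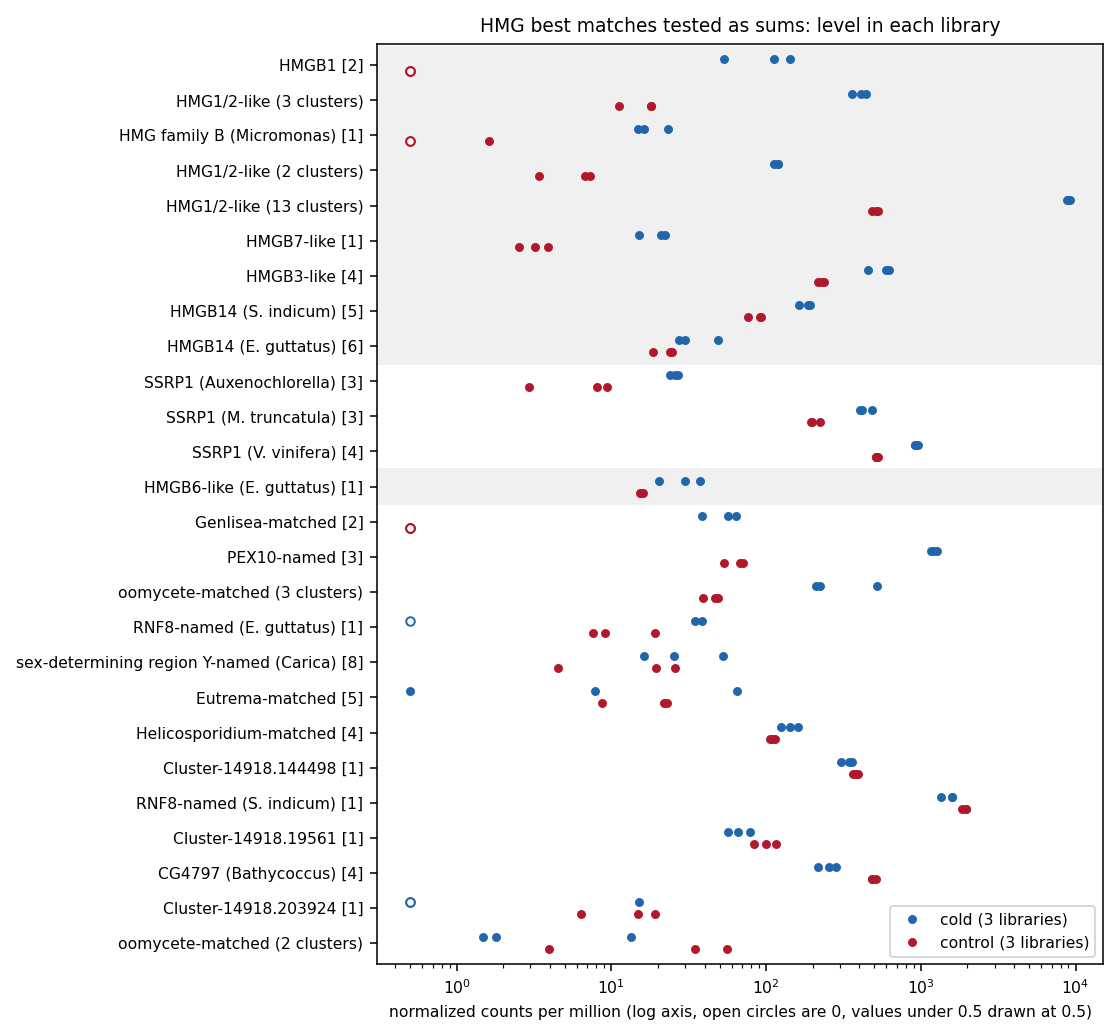
Normalized CPM (log axis) of each of the 26 HMG best matches tested as a sum, with 3 cold libraries (blue, upper row) and 3 control libraries (red, lower row) per best match and the number of clusters in brackets. Bands separate HMG1/2-like and HMGB, SSRP1, 3xHMG-box and other names. The HMG1/2-like sum of 13 clusters stands highest in cold, between 8814 and 9239, against 486 to 528 in control.

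HMG1/2-like proteins, small single-box chromatin proteins named after their animal counterparts, accounted for most of the family's reads in cold leaves. Together their 18 clusters summed to 9527, 9720 and 9348 normalized CPM in cold and to 535, 504 and 549 in control, 18.0-fold higher in cold. The main best match, an HMG1/2-like protein of *Sesamum indicum* with 13 clusters, had 8970, 9239 and 8814 normalized CPM in the cold libraries and 510.4, 486 and 528 in the control libraries. All cold libraries were more than an order of magnitude above all control libraries. The log2 fold change was 4.28 (SE 0.042, edgeR adjusted p = 3.9e-10). Per length its level was 697 ± 6.85 FPKM in cold and 58.2 ± 1.51 FPKM in control (SD, n = 3 each).

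A second HMG1/2-like protein of *S. indicum*, with 3 clusters, had 444, 362 and 413 normalized CPM in cold and 17.9, 11.2 and 18.1 in control (log2 fold change 4.84, SE 0.17, edgeR adjusted p = 1.15e-07). The third, with 2 clusters, had 113, 119.6 and 120.1 in cold and 6.80, 7.25 and 3.39 in control (4.44, SE 0.31, edgeR adjusted p = 6.29e-06). Neither sum overlapped between groups. Almost all reads of the third fell on Cluster-14918.124244, which is only 219 bases long and had 113, 111 and 116 against 5.83, 6.45 and 3.39 normalized CPM. Its FPKM is not used for ranking here, since a cluster shorter than a typical fragment has an uncertain effective length. The 2 clusters matched to a partial protein of *Genlisea aurea*, and by Swiss-Prot to an HMG1/2-like protein of *Ipomoea nil*, had 63.8, 38.6 and 56.9 normalized CPM in cold and no count in any control library, which, with 3 counts taken as the floor of the whole control group, is at least 61.1-fold higher (edgeR adjusted p = 1.39e-04). The reads of the main one, Cluster-14918.130788, stood at 63.8, 16.9 and 56.9 in cold. Only 107 bases at its end were predicted as coding. With no control count, the *G. aurea* sum passed the filter on low counts through the cold group alone, so its p-value is no separate support.

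Several forms of the HMG1/2-like transcript with 13 clusters were present. The shares of its main forms, Cluster-14918.104540 and Cluster-14918.138042, did not overlap between cold and control libraries. Neither was called in a test against the other clusters, given further on. The most abundant, Cluster-14918.104540 of 1138 bases, had 5831, 6342 and 5775 normalized CPM in cold and 273, 244 and 299 in control (log2 fold change 4.46, SE 0.10, edgeR adjusted p = 2.66e-06). Its coding match began at base 49 and was broken into 3 blocks in different frames. Cluster-14918.138042, of 584 bases, carried 1 unbroken coding match of 450 bases from base 49 and had 1970, 1936 and 1983 against 196, 216 and 221 (log2 fold change 3.22, SE 0.07, edgeR adjusted p = 2.64e-06). This form rose as well, by a smaller factor than Cluster-14918.104540. These clusters were not tested against each other. Grouped after the values were seen, the broken forms together made up 73.7 to 75.8% of the sum in cold and 54.0 to 59.9% in control, without overlap. This grouping has no test.

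A further set of 5 clusters of this best match had a coding match that began at base 138. They summed to 1045, 778 and 899 normalized CPM in cold and 14.6, 18.1 and 0 in control, while the 8 clusters starting at base 49 or 50 summed to 7924, 8461 and 7915 in cold and 496, 468 and 528 in control. Forms with the later start thus held 8.42 to 11.7% of the sum in cold and 0 to 3.72% in control. Within this set Cluster-14918.138043 had 587, 449.7 and 556 against 5.70, 10.7 and 0 normalized CPM (log2 fold change 6.57, SE 0.88, edgeR adjusted p = 2.10e-03). Cluster-14918.124495, whose coding match of 444 bases was also unbroken, had 197, 289.8 and 314 against 8.86, 7.38 and 0 (5.62, SE 0.99, edgeR adjusted p = 6.00e-03). The form with the earlier start Cluster-14918.41693 had 123, 182 and 157 against 7.03, 7.46 and 0 (5.01, SE 1.02, edgeR adjusted p = 0.0101). These 3 fold changes rest on few control reads. Without control replicate 3, where each stood at 0, they were 5.94, 4.996 and 4.38, and without control replicate 2 that of Cluster-14918.138043 was 7.46. Cluster-14918.82043 had reads in cold replicate 1 only, at 242 normalized CPM.

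Whether a cluster changed by another amount than the other clusters of its best match was tested with edgeR over 3858 clusters, of which 8.24% were called. Of 30 HMG clusters in that test 4 were called. In the HMG1/2-like best match Cluster-14918.138043 rose more than the others (edgeR adjusted p = 0.0155, log2 difference 2.41), and this call was lost without any 1 of the cold libraries or without control replicate 1 or 3, with adjusted p of 0.0554 to 0.102. The difference of Cluster-14918.104540 from the other clusters was 0.30 (edgeR adjusted p = 0.790) and that of Cluster-14918.138042 was -0.94 (edgeR adjusted p = 0.14). The other 3 calls lay in the best match described as PEX10.

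**Figure D2:**
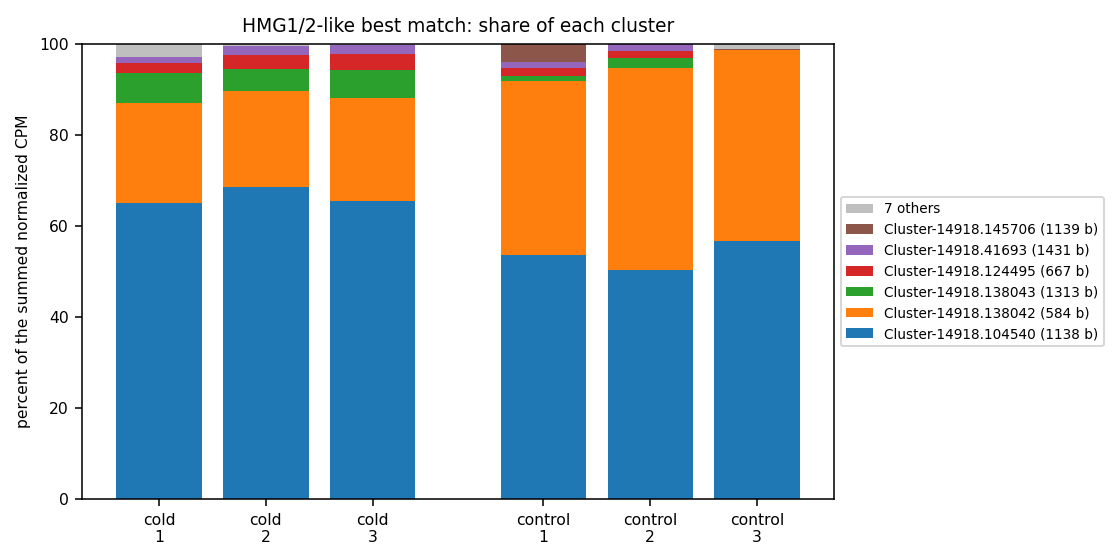
Share of each cluster in the summed normalized CPM of the HMG1/2-like best match with 13 clusters, with 1 bar per library, cold on the left and control on the right, and cluster lengths in bases in the legend. The orange part, the 584-base Cluster-14918.138042 with an unbroken coding match, takes 20.96 to 22.5% in cold and 38.3 to 44.5% in control.

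In the HMG1/2-like best match with 3 clusters, Cluster-14918.171468 was the most abundant, with 294, 249 and 284 normalized CPM in cold and 9.56, 6.12 and 13.7 in control (log2 fold change 4.78, SE 0.33, edgeR adjusted p = 1.44e-04). Cluster-14918.146869, with 1 coding match of 555 bases, had 94.98, 82.3 and 100.3 against 0, 1.80 and 4.41 (5.45, SE 0.94, edgeR adjusted p = 5.48e-03, and 6.502 without control replicate 3). The remaining one, Cluster-14918.82044, had 55.1, 30.1 and 29.6 in cold and 8.35, 3.26 and 0 in control and was not called (edgeR adjusted p = 0.0758).

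HMGB3-like, matched to a small HMGB protein of *Malus domestica*, was 2.48-fold higher in cold by its CPM. It had 455, 593 and 624 normalized CPM in cold and 235, 225 and 215 in control, without overlap (log2 fold change 1.44, SE 0.12, edgeR adjusted p = 2.05e-05). Its level was 40.5 ± 6.16 FPKM in cold and 19.6 ± 1.15 FPKM in control. The 3 clusters that carried nearly all reads moved together. The most abundant, Cluster-14918.69225, had 266, 345 and 345 against 145, 119.5 and 113 normalized CPM (log2 fold change 1.34, SE 0.18, edgeR adjusted p = 1.93e-03). It held 55.3 to 58.5% of the sum in cold and 52.3 to 61.6% in control, so the makeup of this sum overlapped between groups.

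HMGB7-like, 1 cluster matched to an HMGB protein of *S. indicum*, was scarce but higher in cold, with 20.8, 22.3 and 14.99 normalized CPM against 3.88, 3.22 and 2.54 in control (log2 fold change 2.68, SE 0.51, edgeR adjusted p = 1.92e-03). The cluster annotated as an HMG family B protein of the alga *Micromonas pusilla*, and by Swiss-Prot as a mitochondrial transcription factor A, had 16.4, 14.9 and 23.2 in cold and 0, 1.61 and 0 in control. That is 38 reads against 2, a ratio of 31.5 with an exact 95% counting interval of 8.15 to 270 (log2 fold change 4.82, SE 0.92, edgeR adjusted p = 2.02e-03 as a sum). Both control reads came from control replicate 2, and without that library the fitted log2 fold change was 7.03, a value that depends on the prior count since the other control libraries stood at 0. As a cluster in its own fit, Cluster-14918.6003, it was called with an adjusted p of 0.0187 and lost that call without any 1 library other than control replicate 2, at 0.0535 to 0.0705.

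HMGB14 of *S. indicum*, an HMGB protein with 5 clusters here, had 188, 163 and 193 normalized CPM in cold and 76.6, 93.4 and 91.1 in control (log2 fold change 1.19, SE 0.14, edgeR adjusted p = 1.11e-04). Its most abundant cluster, Cluster-14918.219458, had 137, 74.1 and 121 against 61.1, 81.1 and 76.0, overlapped between groups and was not called (edgeR adjusted p = 0.168). Cluster-14918.213929 rose, with 50.6, 66.1 and 56.5 against 11.6, 12.3 and 15.1 (log2 fold change 2.13, SE 0.35, edgeR adjusted p = 4.85e-03). Its difference from the other HMGB14 clusters did not pass (edgeR adjusted p = 0.656). The 6 clusters matched to HMGB14 of *Erythranthe guttatus* summed to 48.8, 30.1 and 27.2 against 24.8, 23.8 and 18.7, with a log2 fold change of 0.77 that was not called (edgeR adjusted p = 0.0972).

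HMG2 of *Ipomoea nil* and a pair of MNB1B-like proteins of *Ricinus communis*, small HMG-box proteins of the same kind, were too scarce to be tested. The HMG2 cluster had no count in any library. The MNB1B-like sums reached at most 22.3 normalized CPM in cold and 3.88 in control.

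**Figure D3:**
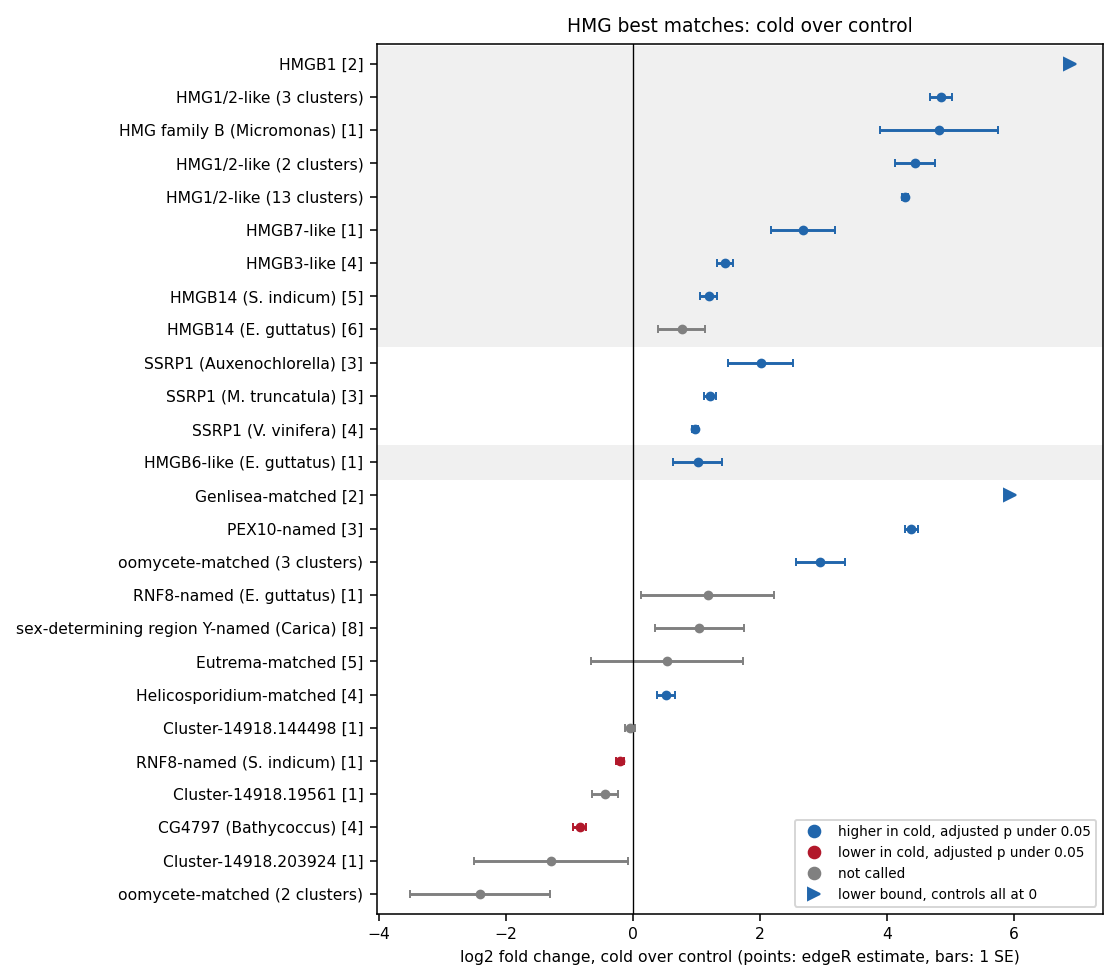
Log2 fold change, cold over control, of the 26 HMG best matches tested as sums (edgeR estimate, bars of 1 SE), in the same order and bands as the plot of levels. Blue points were called higher in cold, red points lower, and grey points were not called. Triangles give the lower bound for the 2 sums at 0 in all control libraries. All 8 called sums among HMG1/2-like and HMGB names and all 3 sums named SSRP1 in NR lie to the right of 0. Of these 3, only that of *V. vinifera* also matched SSRP1 in Swiss-Prot. Over all sums tested, 34.9% were called higher. Of the 26 sums shown, 7 reached the count minimum in all 3 cold libraries but not in all 3 control libraries.

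A further set of 7 clusters carried Swiss-Prot matches to HMGB1 of Arabidopsis but were split in NR between HMGB1 of *S. indicum* (2 clusters), peroxisome biogenesis factor 10, PEX10 (3 clusters), and the E3 ubiquitin ligase RNF8 of *S. indicum* and of *E. guttatus* (1 cluster each). PEX10 and RNF8 are RING proteins with no HMG box. These clusters were 2146 to 2725 bases long, and reads on them cannot be divided between the annotations. Summed over all 7, the level was 2875, 2815 and 2896 normalized CPM in cold and 1919, 2036 and 2041 in control. As 1 sum, an alternative added after the values were seen, they rose by a log2 fold change of 0.65 (SE 0.033, edgeR adjusted p = 8.62e-07).

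Divided by their NR names, these 7 clusters gave changes in both directions. The RNF8 sum of *S. indicum*, which is Cluster-14918.99507 alone, had 1602, 1355 and 1597 normalized CPM in cold and 1842, 1964 and 1962 in control. It was lower in cold (log2 fold change -0.21, SE 0.064, edgeR adjusted p = 0.0207 as a sum, and -0.34, SE 0.08, adjusted p = 0.0164 as a cluster). With RLE factors the sum missed the threshold, at -0.14 and an adjusted p of 0.0587. The PEX10 sum had 1161, 1280 and 1211 in cold and 67.9, 53.3 and 71.1 in control (log2 fold change 4.38, SE 0.10, edgeR adjusted p = 8.60e-09). The HMGB1 sum had 113, 142 and 53.2 in cold and no count in any control library, at least 118-fold higher (edgeR adjusted p = 1.67e-04). It passed the filter on low counts through the cold group alone, so its p-value is no separate support. The RNF8 cluster of *E. guttatus* had 0, 38.3 and 35.0 against 9.14, 19.0 and 7.63, which overlapped and was not called (edgeR adjusted p = 0.340).

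Of these 7 clusters, 3 had a coding match that began at base 298 and 4 at base 287. Each of the 3 had a partner among the 4 that was 11 bases shorter, so that the pair differed in length by as much as in its coding start. Reads were assigned to the later-starting forms in cold libraries only. Together those 3 clusters had 1009, 1172 and 1095 normalized CPM in cold and no count in any control library, at least 1256-fold higher. They held 35.1, 41.6 and 37.8% of the 7 clusters' sum in cold. The 4 earlier-starting clusters had 1866, 1643 and 1802 in cold and 1919, 2036 and 2041 in control, a ratio of 0.886. The grouping by coding start was made after the values were seen and has no test. Counts are estimated and forms 11 bases apart can share reads. How far the division of reads between forms set these values was not tested.

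By pair, Cluster-14918.136515 had 854, 993 and 994 normalized CPM in cold and 0 in all control libraries, at least 1089-fold higher (edgeR adjusted p = 4.16e-05), beside Cluster-14918.99507, its partner described above. Cluster-14918.123542 had 110.3, 119.5 and 80.4 against 0, at least 119-fold higher (edgeR adjusted p = 1.06e-03), and its partner Cluster-14918.143906 had 197, 167 and 137 against 67.9, 53.3 and 71.1 (log2 fold change 1.38, SE 0.24, edgeR adjusted p = 5.68e-03). Both HMGB1 clusters, Cluster-14918.123539 with 45.1, 59.4 and 20.2 and Cluster-14918.113001 with 67.5, 82.5 and 33.0, were at 0 in every control library, at least 47.8-fold and 70.2-fold higher (edgeR adjusted p = 6.16e-03 and 4.15e-03). In this last pair neither form had a read in control. All clusters at 0 in control passed the filter on low counts through the cold group alone, so their p-values are no separate support. The bounds against 0 scale with the control reads, and all fell to 0.640 of their value without control replicate 2. They cover counting error only, not the division of reads between the forms of a pair.

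Within the PEX10 best match all 3 clusters were called in the test against the others. Cluster-14918.143906 held all reads of the sum in control and 11.3 to 16.9% in cold (edgeR adjusted p = 2.90e-03 for its difference from the others). Cluster-14918.136515 held 73.6 to 82.1% in cold (edgeR adjusted p = 6.50e-08) and Cluster-14918.123542 held 6.64 to 9.50% (edgeR adjusted p = 3.93e-03). All 3 calls remained with any 1 library left out. However, Cluster-14918.136515 and Cluster-14918.123542 had no count in control, so they entered this test through the cold group alone. The NR name also sets which clusters are compared. Cluster-14918.99507, the partner of Cluster-14918.136515, lies under another name and was not part of the comparison.

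**Figure D4:**
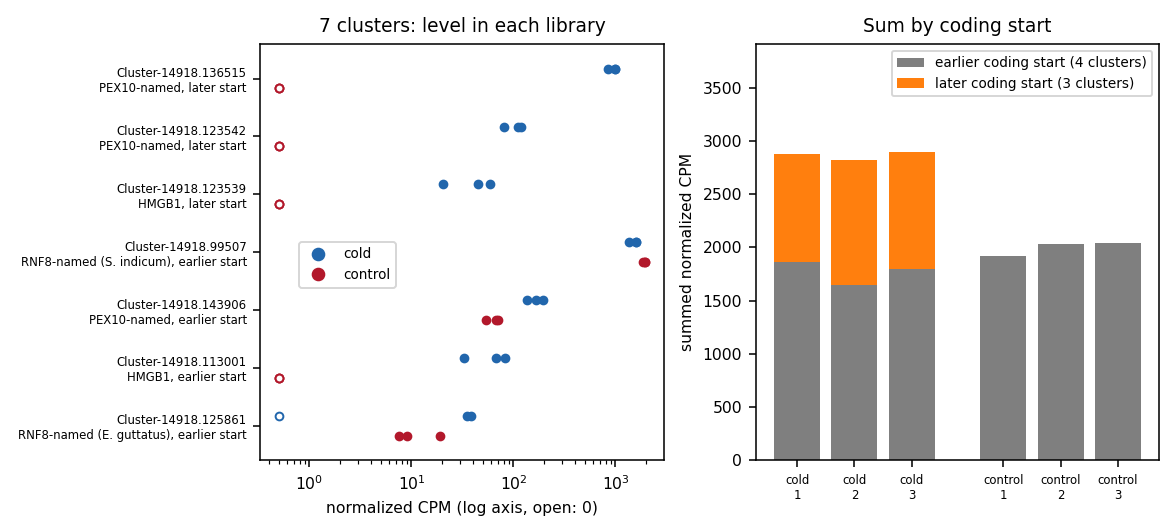
Left, normalized CPM (log axis) of the 7 clusters with a Swiss-Prot match to HMGB1, with cold in blue above control in red, and open circles for 0. Right, their sum in each library, cold on the left, divided by the start of the coding match. The later-starting clusters add 1009 to 1172 in cold and nothing in control.

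SSRP1, the DNA-binding subunit of FACT, was 1.80-fold higher in cold by the CPM of its main best match. The sum of 4 clusters matched to SSRP1 of *Vitis vinifera* had 919, 964 and 914 normalized CPM in cold and 512, 517 and 528 in control, with a small spread in both groups (log2 fold change 0.98, SE 0.048, edgeR adjusted p = 6.85e-07). Its level was 22.4 ± 0.559 FPKM in cold and 14.8 ± 0.164 FPKM in control. The 4 clusters were well annotated, with NR scores of 2154. The partner subunit SPT16 and the words histone H1, AT-hook and nucleosome assembly named no cluster in the table, and the only FACT cluster outside the HMG family was not tested.

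The clusters of this sum traded places between replicates. Cluster-14918.145094, of 2364 bases, had 511, 609 and 659 normalized CPM in cold and 259.9, 96.0 and 423 in control. Cluster-14918.53409, 7 bases shorter, had 326, 276 and 215 in cold and 252, 416 and 97.8 in control. Their sum was 837, 885 and 874 in cold and 512, 512 and 521 in control, steadier than either. Alone, neither was called (edgeR adjusted p = 0.111 and 0.901).

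The other 2 clusters of SSRP1, again 7 bases apart, had a coding match of 1680 bases in place of 1980, though at 2454 and 2447 bases they were the longer transcripts. Together they had 82.3, 79.1 and 40.6 normalized CPM in cold and 0, 4.49 and 7.60 in control, so the clusters with the shorter coding match held 4.44 to 8.96% of the SSRP1 sum in cold and 0 to 1.44% in control. Cluster-14918.131658 alone had 50.3, 54.8 and 31.6 against 0, 0.919 and 6.13 (log2 fold change 4.25, SE 1.21, edgeR adjusted p = 0.0329). That call was lost without any 1 cold library or without control replicate 2, at 0.0612 to 0.108, and leaving out control replicate 1 or 3 gave 3.66 or 6.29. Its difference from the other SSRP1 clusters did not pass (edgeR adjusted p = 0.234).

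**Figure D5:**
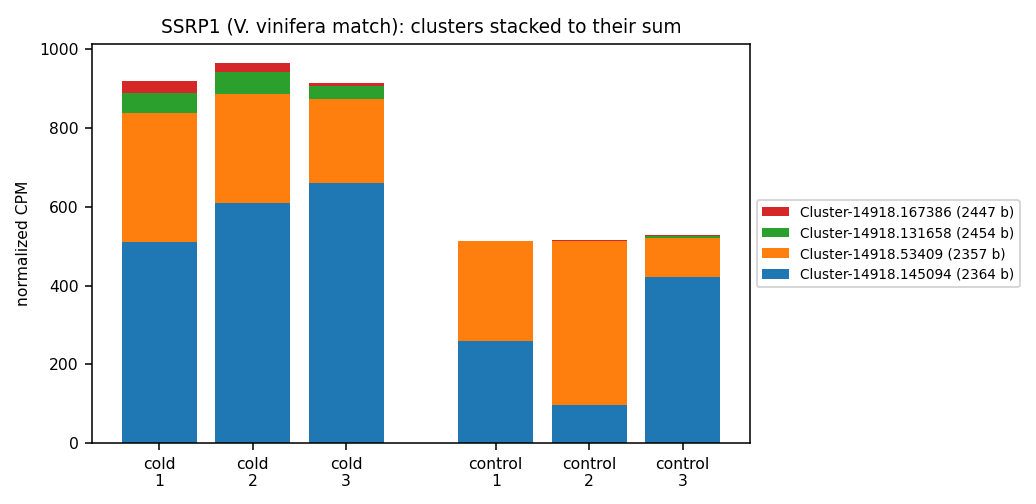
Normalized CPM of the 4 SSRP1 clusters matched to *V. vinifera*, stacked in each library, cold on the left and control on the right, with lengths in bases. The stacks reach 914 to 964 in cold and 512 to 528 in control, while the blue and orange parts exchange shares between control replicates 2 and 3.

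The other SSRP1 names were weaker annotations. The best match to SSRP1 of *Medicago truncatula*, with 3 clusters, rested on an NR score of 294 and a coding match of 330 bases, and its Swiss-Prot match was the fungal non-histone chromosomal protein 6, a small HMG-box protein. It had 482, 418 and 404 normalized CPM in cold and 197, 222 and 196 in control (log2 fold change 1.21, SE 0.10, edgeR adjusted p = 1.22e-05). Cluster-14918.40870 carried all of its reads in cold replicates 1 and 3, and had 482, 320.4 and 404 against 178, 136 and 196 (1.24, SE 0.21, edgeR adjusted p = 5.49e-03). The best match to an SSRP1 of the alga *Auxenochlorella protothecoides*, with the same kind of Swiss-Prot match, had 26.8, 23.8 and 25.9 against 2.91, 8.06 and 9.32 (2.01, SE 0.51, edgeR adjusted p = 8.40e-03). Its most abundant cluster, Cluster-32844.0, was below the filter and had 13.4, 11.9 and 13.6 against 1.94, 2.42 and 5.08. SSRP1 of *S. indicum* and SSRP1-B of *Setaria italica* and *Brachypodium distachyon* were not tested.

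Proteins with 3 HMG boxes, which in Arabidopsis attach to chromosomes during mitosis, were scarce in these leaves. HMGB6-like of *E. guttatus*, 1 cluster with a coding match of 1197 bases, had 29.8, 37.2 and 20.4 normalized CPM in cold and 15.5, 15.3 and 16.1 in control. The groups did not overlap, and the sum passed narrowly (log2 fold change 1.02, SE 0.39, edgeR adjusted p = 0.0446). As a cluster, Cluster-14918.205130, it was not called (edgeR adjusted p = 0.150), and the call of the sum was lost without any 1 library other than cold replicate 3, at 0.1 to 0.157. The other 3xHMG-box cluster was not tested.

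ARID-HMG proteins join an ARID DNA-binding domain to an HMG box. Both HMG clusters of this type, matched to HMGB9 of *S. indicum* and HMGB9-like of *Nicotiana sylvestris*, were fragments of 406 and 319 bases and were not tested. HMGB9 had 5.33, 10.8 and 16.2 normalized CPM in cold and 1.94, 0.806 and 3.83 in control, which did not overlap. Another 7 clusters with the same HMGB9 best match stood under the ARID family and so were not members. They summed to 79.2, 84.0 and 59.6 against 18.1, 11.5 and 20.3 (log2 fold change 2.29, SE 0.33, edgeR adjusted p = 4.24e-04).

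The sums under other names went in both directions. Those called higher included 3 clusters matched to a hypothetical protein of the oomycete *Phytophthora parasitica*, by Swiss-Prot to the HMG-box protein DSP1 of Drosophila, with 211, 517 and 224 normalized CPM in cold and 38.8, 48.8 and 46.9 in control (log2 fold change 2.95, SE 0.38, edgeR adjusted p = 2.38e-04). The cold libraries did not reach down to control, but cold replicate 2 stood well above the other two. Cluster-14918.215336, its most abundant cluster, had 97.7, 276 and 119 against 22.1, 18.5 and 22.5 (2.94, SE 0.48, edgeR adjusted p = 4.51e-03), and the fold change was 2.33 without cold replicate 2. Cluster-14918.64322 had 114, 242 and 99.9 against 16.7, 30.3 and 14.97 (2.86, SE 0.51, edgeR adjusted p = 6.34e-03).

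CG4797, a name from the alga *Bathycoccus prasinos*, was the clearest sum lower in cold. Its 4 clusters had 284, 256 and 215 normalized CPM in cold and 485, 511 and 485 in control (log2 fold change -0.84, SE 0.10, edgeR adjusted p = 1.37e-04). Cluster-14918.110330, the most abundant, had 185, 104 and 105 against 354, 307 and 282 (-1.26, SE 0.27, edgeR adjusted p = 0.0123). Cluster-14918.54483, 2713 bases long with a coding match of 1446 bases where that of Cluster-14918.110330 spans 1617, had 21.2, 117 and 67.4 against 45.7, 49.3 and 39.0 and was not called.

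The best match to *Helicosporidium*, a parasitic alga, with Swiss-Prot matches to non-histone chromosomal protein 6, had 124, 159.7 and 143 normalized CPM in cold and 105, 114 and 109 in control (log2 fold change 0.52, SE 0.14, edgeR adjusted p = 0.0109). Its most abundant cluster, Cluster-14918.20650, was not called (84.1, 119 and 72.8 against 57.7, 58.5 and 49.9, edgeR adjusted p = 0.0857). The sum kept its direction but missed the threshold in 4 alternatives, with whole-library totals at 0.15 (adjusted p = 0.354), with table totals at 0.23 (adjusted p = 0.16), and with limma on log2(FPKM + 1) and log2(FPKM + 0.1) at 0.16 each (adjusted p = 0.221 and 0.232).

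Cluster-14918.144498, which had no NR match, was the only sum with a mean over 100 normalized CPM that was not called. It had 345, 306 and 359.8 in cold and 366, 395 and 383 in control. Although these did not overlap, the log2 fold change was -0.04 (SE 0.078, edgeR adjusted p = 0.626) in the summed fit. With whole-library totals, which move the median of all sums to -0.44, it was -0.41 and was called (adjusted p = 0.00211). The remaining 6 sums not called comprised 2 further single clusters without NR match and the best matches to a second RNF8, to *Eutrema salsugineum*, to a sex-determining region Y protein of *Carica papaya* and to a second protein of *P. parasitica*, with adjusted p of 0.0849 to 0.702.

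Names from outside land plants covered 20 HMG clusters and 9 best matches. These clusters summed to 682, 979 and 639 normalized CPM in cold and to 672, 741 and 660 in control, and the libraries overlapped. The 76 clusters with a best match in a land plant summed to 14745, 14962 and 14587 in cold and 3584, 3701 and 3704 in control, a ratio of 4.03. The 14 clusters without NR match summed to 467, 454 and 474 against 507, 564 and 558. Whether reads on the clusters named for algae and oomycetes came from the plant was not tested.

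Other families of chromatin-related regulators were counted in the same cluster fit, where 21.9% of all tested clusters were higher and 23.6% lower. Of 135 tested SNF2 clusters, chromatin remodelling ATPases, 14 (10.4%) were higher and 41 (30.4%) lower in cold, with a median log2 fold change of -0.61. ARID had 1 (2.86%) higher and 5 (14.3%) lower of 35, with a median of -0.89. GNAT acetyltransferases had 26 (22.2%) higher and 16 (13.7%) lower of 117, with a median of 0.01. The GNAT share called higher was thus near that of all tested clusters. Of the 6 tested clusters of E2F-DP, regulators of the cell cycle, edgeR called 0, with 0 also at an unadjusted p under 0.05, while DESeq2 and limma each called 1. Against these stand the 24 (57.1%) higher and 2 (4.76%) lower of 42 for HMG. The differences between families were not tested.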

How the data were processed

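RNA of *V. bonariensis* leaves was sequenced by the authors from TruSeq RNA libraries, 3 per group, grouped here by their labels. The authors deposited 1 table of transcriptional regulators with 10251 lines for 9740 clusters, since 492 clusters stood on several lines with identical values, of which 1 was kept. The estimated counts in it are raw values as the authors deposited them and can be fractional. Its FPKM values, deposited by the authors, are scaled to cluster length and library size. The table also holds the authors' own comparison (a mark for changed clusters, a log2 ratio and a q value), which was not used. The submitters' processing notes name Bowtie2 2.0.6 and TopHat2 2.0.12 without their role. Which programs assembled and counted is not given in the sources used here, nor whether counting used strand, so overlapping genes on opposite strands cannot be told apart. Labels and methods of the study differ in the greenhouse temperatures.

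Counts were rounded and fitted with edgeR 4.0.16 in R 4.3.3 (quasi-likelihood test, filterByExpr with a minimum count of 10, TMM factors, no term besides condition). P-values were Benjamini-Hochberg adjusted over all tested features, with a threshold of 0.05. The fit was run on clusters and on sums by NR match and family, and edgeR's diffSpliceDGE compared clusters of 1 best match. The common biological coefficient of variation was 0.639 for clusters and 0.168 for sums. A group at 0 was set to a floor of 3 counts over its libraries, 0.869 normalized CPM in control. Intervals and floors cover counting error only. Library totals recovered from count, FPKM and length were 13076687 to 14321353 in cold and 16950925 to 20696092 in control. Replicates differed by more than sampling noise, with a chi-square per cluster of 12.7 to 14.7. The fits were also run on simulated counts, drawn for each cluster separately. No reads were shared between forms there, so the simulation does not cover that sharing. Other tools were limma 3.58.1, DESeq2 1.42.0, Python 3.11.15, pandas 2.3.3, numpy 2.4.6 and matplotlib 3.10.9.

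The members and lists were chosen with earlier results of these data known. Per-library values are given for best matches that were called or averaged at least 100 normalized CPM, for their most abundant cluster, and for up to 10 called clusters per direction, by size of change, that averaged at least 1 normalized CPM. Other clusters named were chosen after their values were seen. Alternatives were DESeq2, RLE factors, table totals, whole-library totals, a stricter filter or none, a replicate block, limma on log2 FPKM with a pseudocount of 1 or 0.1, and each library left out in turn. No sequences were used here.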

Additional observations from a re-analysis of the deposited data

How the results depend on the processing

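The higher HMG level in cold kept its direction under every alternative run for the family total. The log2 ratio of this total was 1.71 as reported, 1.47 with whole-library totals, 1.78 with RLE factors and 2.37 in FPKM. It was 2.01 for land plant best matches alone, and 1.69 to 1.72 with a library left out. Of the family's mean FPKM of 1501.8 in cold and 290.52 in control, 498.8 and 39.977 came from the 219-base Cluster-14918.124244. The effective length of that cluster is uncertain, so the size of the FPKM ratio is uncertain too. The FPKM ratio without that cluster is not given here. HMG clusters called higher numbered 24 as reported and with RLE factors, table totals or whole-library totals. Their number was 21 to 23 with a library left out, 22 with no filter, 25 with the stricter filter or limma at either pseudocount, and 32 with DESeq2. Those called lower numbered 2 as reported, 4 with table totals, 5 with whole-library totals, 4 with DESeq2, 5 with limma at either pseudocount, and 2 to 4 with a library left out. For sums by best match the count lower in cold was 2 as reported, 1 with RLE factors, 4 with table totals or whole-library totals, 4 with limma at either pseudocount, and 2 to 4 with a library left out. The count higher ran from 14 to 21 over all alternatives by NR match. For none of these alternatives are the shares called over all clusters and sums given here. Whole-library totals moved the median log2 fold change of all sums to -0.44, against -0.07 as reported.

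With the replicate block, in which same-numbered libraries were paired, 13 HMG clusters were higher and 1 lower, 15 sums were higher and 2 lower, and 3 clusters differed from the others of their best match. The shares called over all clusters and sums with the block are not given here, so the smaller counts do not set HMG members apart. Deviations of same-numbered libraries correlated between -0.03 and -0.001, and nothing says that a number marks a shared plant or day.

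Directions turned for the best match to *Eutrema*, 0.53 as reported and not called, which was -0.68 with the replicate block, -2.13 to 1.10 with a library left out, and -0.0443 and -0.745 with limma on log2(FPKM + 1) and log2(FPKM + 0.1). They also turned for Cluster-14918.144498, at 0.0192 with RLE factors and -0.113 to 0.0025 with a library left out. The RNF8 sum was -0.21 as reported, while the wider sum of all 7 clusters matched to HMGB1 was 0.65. HMGB6-like lost its call in 11 alternatives. Of 18 called sums, 17 stayed called with any 1 library left out, and of 26 called clusters 22 did. The same shares over all called sums and clusters are not given here. The filter on low counts left 68 of 110 clusters untested, of which 5 had no count and some had reads in only 1 or a pair of libraries, such as Cluster-14918.82043 with 163 counts in cold replicate 1 and none elsewhere. Membership by any HMG entry gave the same 110 clusters.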
